A study of Mus musculus with 18 samples.

Results

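The 31 genes described here mark the oligodendrocyte lineage and its product, the myelin sheath. They were chosen by gene symbol, and each had a row of its own among the 22063 genes of the count table. They comprise 2 genes of the precursor cell, 6 lineage transcription factors, 2 genes of newly formed oligodendrocytes, 5 myelin membrane proteins, 7 adhesion, inner tongue and junction proteins, 3 enzymes, and 6 receptors, secreted and signalling proteins. RNA had been sequenced from the hippocampus of mice in a series on vestibular spatial disorientation, with tissue taken at once after rotation. Control mice (n = 3 libraries), labelled as a blank control, had no rotation stated. The other mice were rotated and form groups of 5 libraries each. S-V mice turned in 1 direction without vision. D+V mice turned in both directions and could see, and D-V mice did so without vision, a treatment labelled Coriolis illusion. Strain, sex and age were not given in the sources used here. Nothing in the labels says that the libraries of a group came from separate animals, so p-values reflect only how these samples spread, which may be technical.

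Oligodendrocytes arise from precursor cells that carry the PDGF receptor encoded by Pdgfra and the NG2 proteoglycan encoded by Cspg4. As precursors leave the cell cycle, OLIG and SOX transcription factors together with MYRF switch on the genes of myelin, the membrane that these cells wrap around axons. In the hippocampus myelin lies in the white matter tracts along its surface and, more sparsely, among its neurons.

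The starts of 4 of these genes are shown because the first pair belongs to mature cells and turned out to vary together over the libraries, while the second pair belongs to precursors and did not follow it. The RefSeq promoter table (build GRCm38.p6) held an entry for 23 of the 31 genes. Each printed run is the 250 bases before the start site, 5′ to 3′ on the gene's own strand: Mog at chr17:37023399-37023648 (minus strand), Cnp at chr11:100574689-100574938 (plus strand), Pdgfra at chr5:75152001-75152250 (plus strand) and Cspg4 at chr9:56864854-56865103 (plus strand). Capitals mark matches on either strand to a SOX core (ACAAAG or ACAATG), a MYRF motif (CTGGCAC or CTGGTAC) or an E-box (CAGCTG).
Mog: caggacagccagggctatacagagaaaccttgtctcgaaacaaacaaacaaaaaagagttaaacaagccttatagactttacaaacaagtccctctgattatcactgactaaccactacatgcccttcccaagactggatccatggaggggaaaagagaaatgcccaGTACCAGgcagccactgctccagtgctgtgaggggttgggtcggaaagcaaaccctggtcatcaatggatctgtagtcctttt
Cnp: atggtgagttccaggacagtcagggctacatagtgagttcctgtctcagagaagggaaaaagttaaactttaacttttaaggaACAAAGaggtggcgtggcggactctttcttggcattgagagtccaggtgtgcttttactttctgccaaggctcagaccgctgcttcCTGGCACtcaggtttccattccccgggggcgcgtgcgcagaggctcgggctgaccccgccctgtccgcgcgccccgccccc
Pdgfra: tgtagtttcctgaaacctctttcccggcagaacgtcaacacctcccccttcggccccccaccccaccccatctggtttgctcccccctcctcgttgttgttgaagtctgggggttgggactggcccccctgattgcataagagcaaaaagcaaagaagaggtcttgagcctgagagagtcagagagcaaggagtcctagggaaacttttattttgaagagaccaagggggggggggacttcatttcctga
Cspg4: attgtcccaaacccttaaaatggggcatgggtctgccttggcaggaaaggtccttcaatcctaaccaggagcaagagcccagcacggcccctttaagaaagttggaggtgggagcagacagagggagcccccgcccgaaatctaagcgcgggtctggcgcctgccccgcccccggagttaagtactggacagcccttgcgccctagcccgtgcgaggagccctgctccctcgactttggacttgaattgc

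The Mog sequence held 1 MYRF motif, from base −83 to base −77, where base −1 lies directly before the start. The Cnp sequence held 1 SOX core from −167 to −162 and 1 MYRF motif from −81 to −75. Neither the Pdgfra nor the Cspg4 sequence held these letters, which says only that they are not in this window. GC content was 46.8% for Mog, 57.2% for Cnp, 54.4% for Pdgfra and 60.4% for Cspg4. Over windows of 300 bases, which add 50 bases after the start, the MYRF motif stood in 6 of the 32 promoters of the 23 genes (those of Cnp, Lpar1, Mag, Mog and Opalin) and in 7.1% of all 32851 promoters of the table. The SOX core stood in 15 of the 32 and in 28.6% of all promoters, and the E-box in 3 of the 32 and in 16.3%. A match is a description of the letters, not a site shown to be bound.

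All 31 genes passed the filter on low counts and were tested together with the rest of the 14763 genes that did. Libraries held between 15.03 and 25.31 M estimated counts. Levels are given as CPM, the usual unit of counts relative to library size, after TMM scaling, which corrects for differences in library composition. Per kilobase of the longest transcript, Mbp, the basic protein that compacts the inner faces of the myelin membrane, was the highest at a median of 802 CPM per kilobase, followed by Mobp at 302, Plekhb1 at 170, Trf at 147 and Cnp at 138. Cspg4 (2.68) and Enpp6 (1.73) were the lowest of the 31. The highest library exceeded the lowest by 1.52-fold (Gpr37) to 2.18-fold (Ppp1r14a).

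**Figure D1:**
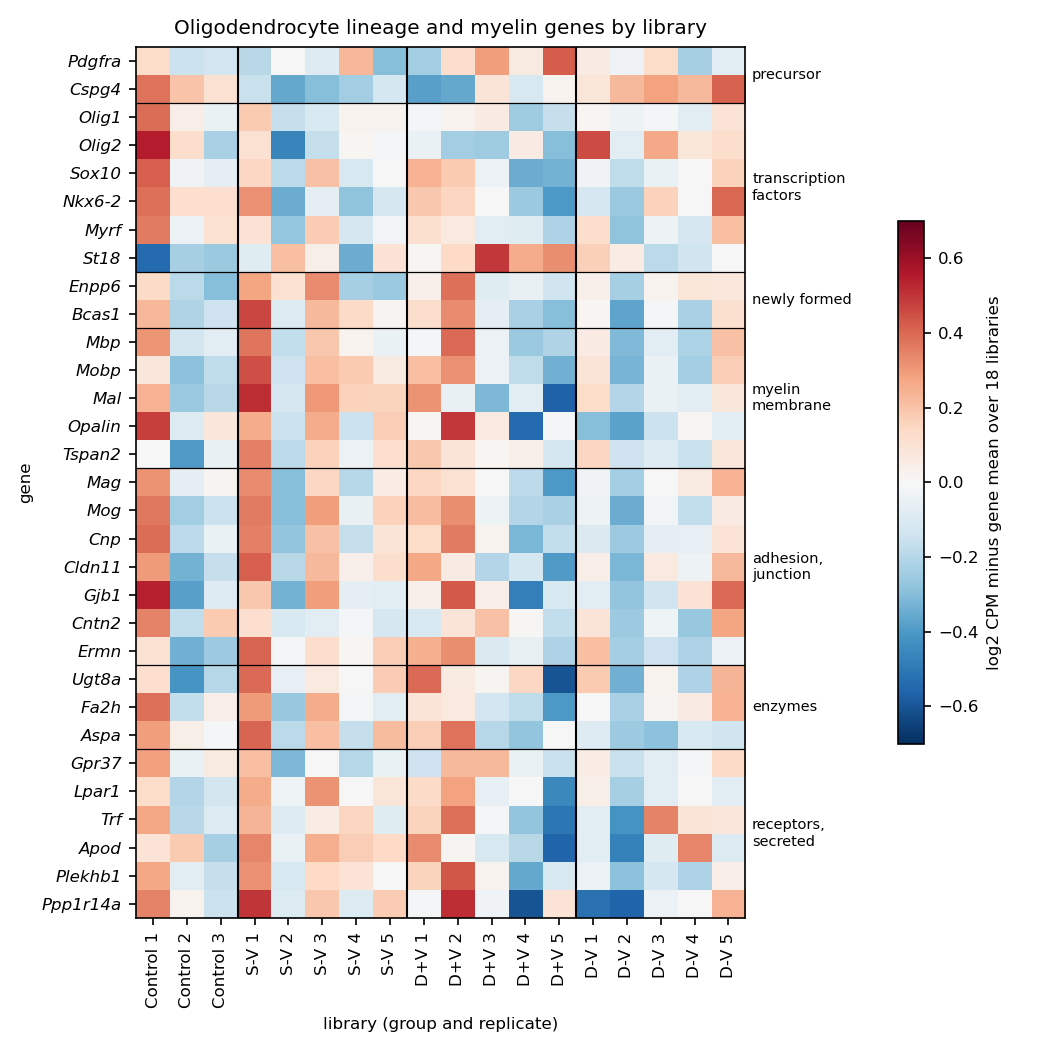
Heat map of the 31 genes (rows, by role) in the 18 libraries (columns, by group). Colour is log2 CPM minus the gene's mean over all libraries, and colours run down columns for the mature genes, red in Control 1, S-V 1 and D+V 2 and blue in D-V 2, while Pdgfra, Cspg4 and St18 do not follow them.

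With edgeR 1 of the 31 genes passed the test, in 1 of the 7 comparisons made. In D+V against Control St18 (ENSMUSG00000033740), a zinc finger transcription factor of the MYT family, rose by a log2 of 0.59 (SE 0.12, adjusted p 0.0367 by its quasi-likelihood F test), and 0 of the other 30 genes passed. In that comparison 0.942% of all tested genes were called at an adjusted p under 0.05. In S-V against Control, in D-V against Control, in the rotated mean (the average of the 3 rotated groups) against Control, and in the comparisons of D-V with S-V, D-V with D+V and D+V with S-V, 0 of the 31 genes were called, beside 0% of all genes. The other tools called a few more: DESeq2 called Cspg4 in S-V, and Cspg4 and St18 in D+V, each against Control, and limma voom called Cspg4 in S-V and St18 in D+V against Control. Both tools called St18 for the rotated mean and Cspg4 in D-V against D+V. DESeq2 called Cspg4 in D-V against S-V, and limma voom called Pdgfra, St18, Mal and Apod in D+V against S-V. Neither called any of the 31 in D-V against Control. Both tools also called more of all genes than edgeR. In S-V against Control DESeq2 called 216 and limma voom 318, beside 0 with edgeR. In D+V against Control they called 731 and 1882, beside 139. Their totals for the rotated mean and between rotated groups are not given here, so those calls have no share beside them. The comparisons with Control share the same 3 control libraries.

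At an unadjusted p under 0.05 the 31 genes were found at about the rate of genes at large or below it. There were 3 in S-V against Control (13.4% of all genes), 4 in D+V (17.6%) and 1 in D-V (6.02%). There were 2 for the mean of the rotated groups (12.9%), 2 in D-V against S-V (6.29%), 3 in D-V against D+V (13.6%) and 2 in D+V against S-V (12.8%). The median log2 fold change of the 31 genes against Control was 0.04 for S-V, −0.052 for D+V and −0.081 for D-V, where the median of all tested genes was 0.002, −0.002 and 0.005. These medians depended on single libraries. Without Control replicate 1, the control library highest in myelin genes, they were 0.19, 0.121 and 0.091, and with each library left out in turn their lowest values were −0.039, −0.145 and −0.156. Libraries of the rotated and control groups did not overlap for 1 of the 31 genes in S-V (12.4% of all genes), 2 in D+V (7.63%) and 2 in D-V (5.12%).

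**Figure D2:**
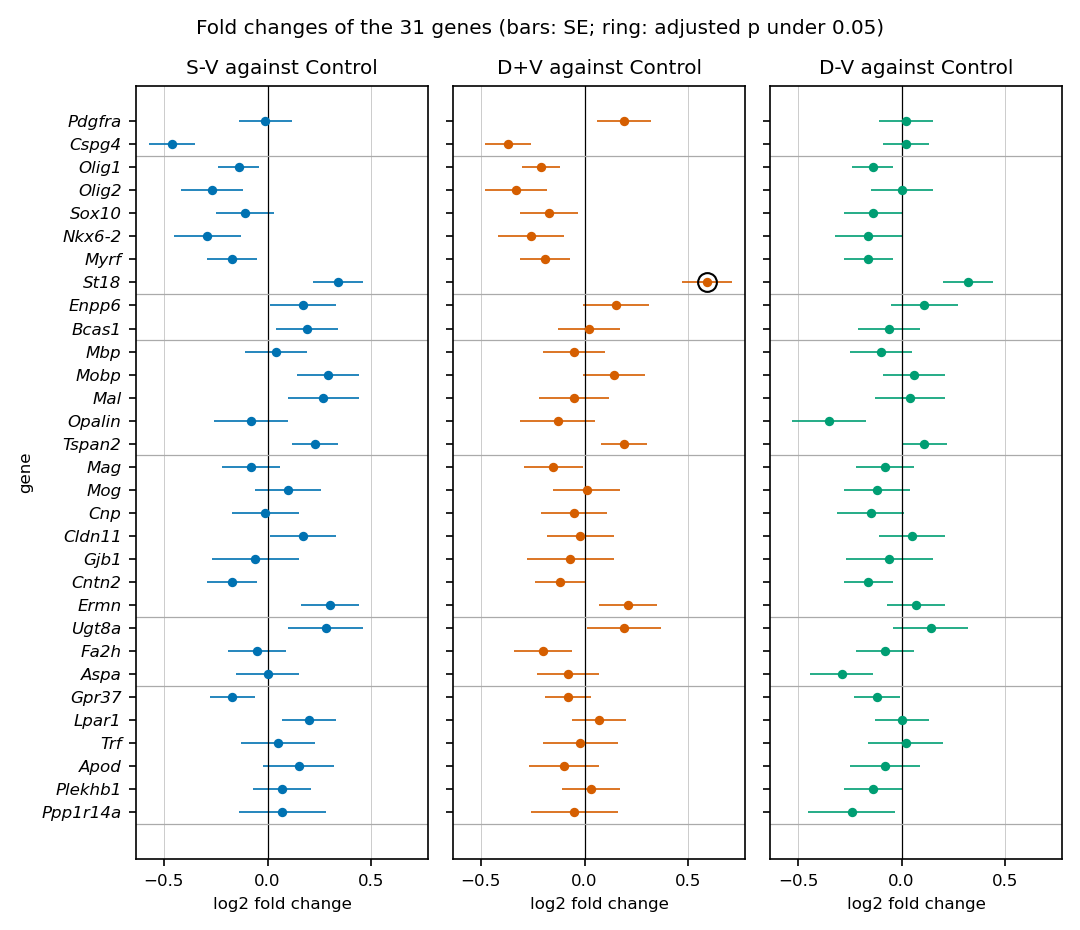
Log2 fold change of each of the 31 genes against Control in the S-V, D+V and D-V groups, with bars of 1 SE and grey lines between roles. Most points lie within 0.3 of 0, and the ringed St18 in D+V (0.59) is the only one with an adjusted p under 0.05.

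The 2 precursor genes differed from each other. Pdgfra (ENSMUSG00000029231), the receptor through which PDGF drives precursor division, was at 55.9, 46.1 and 46.7 CPM in the 3 controls. It was at 44.8, 51.4, 48.1, 60.2 and 41.6 in S-V, at 43.2, 55.8, 62.8, 53.4 and 68.8 in D+V, and at 53.2, 50.4, 56, 43.6 and 48.4 in D-V. All 4 groups overlapped, and the log2 fold change against Control was −0.01 for S-V, 0.19 for D+V and 0.02 for D-V (SE 0.13 each). In bulk tissue fewer cells of a type and less RNA per cell cannot be told apart.

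Cspg4 (ENSMUSG00000032911), which encodes the NG2 proteoglycan of precursors and of pericytes, was at 27.2, 24.0 and 22.5 CPM in Control. The 5 S-V libraries were at 18.8, 16.3, 17, 17.7 and 19.2 CPM, and the 5 D+V libraries at 16.1, 16.3, 22.3, 19.4 and 21.3. Every library of these groups lay below every control. The D-V libraries were at 22.2, 24.5, 25.4, 24.5 and 27.9 CPM and overlapped the controls. Against Control the log2 fold change was −0.46 in S-V (SE 0.11, adjusted p 0.145), −0.37 in D+V (SE 0.11, adjusted p 0.0885) and 0.02 in D-V (SE 0.11, adjusted p 0.991), by edgeR, so no difference was called. The S-V value was −0.28 in the fit that removes trends on GC content and length.

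Between D-V and S-V Cspg4 had the smallest p of all 14763 genes, a comparison named after its values were seen. The 5 D-V libraries all lay above the 5 S-V libraries, which held for no other of the 31 genes and, in either direction, for 2.05% of all genes. The log2 difference was 0.48 (SE 0.10, unadjusted p 5.87e-05, adjusted p 0.61 by edgeR). DESeq2 gave an adjusted p of 0.0217 and limma voom 0.137. Against D+V the D-V group was higher by a log2 of 0.39 (SE 0.10, adjusted p 0.0976 by edgeR).

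**Figure D3:**
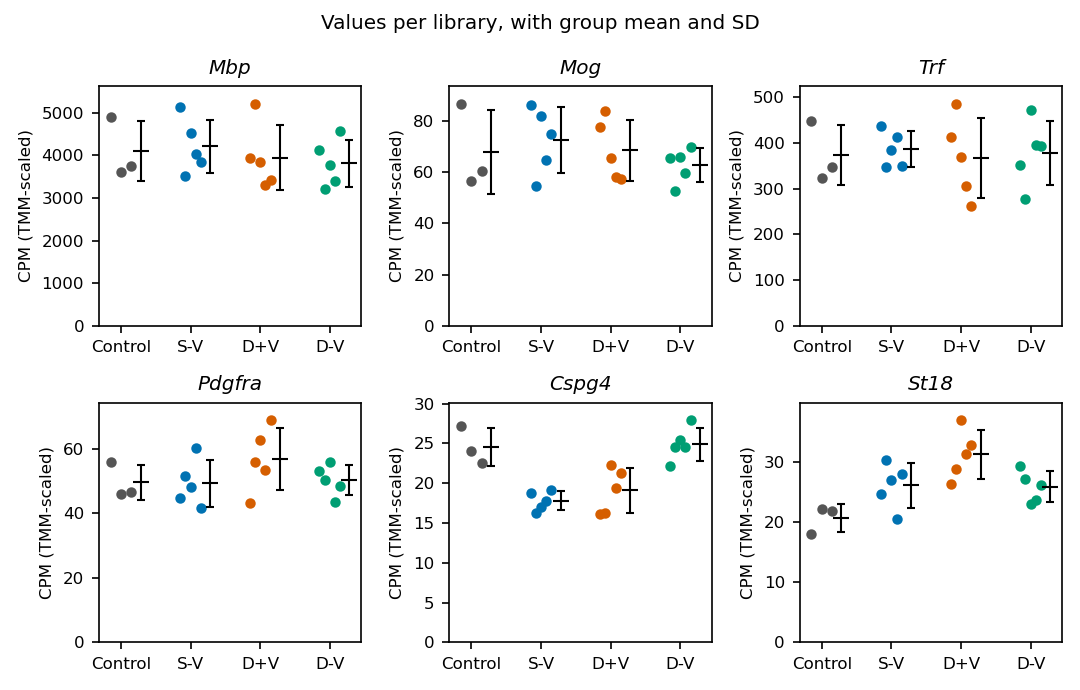
CPM per library (points) with the group mean and SD (dash and bar) for Mbp, Mog, Trf, Pdgfra, Cspg4 and St18. Cspg4 is below all controls in the 5 S-V and 5 D+V libraries but not in D-V, St18 in D+V (26.4 to 37.0) is above all controls (18 to 22.3), and the groups overlap for the other 4.

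The ratio of Cspg4 to Pdgfra CPM within a library ran from 0.482 to 0.521 in Control, 0.294 to 0.463 in S-V, 0.292 to 0.372 in D+V and 0.417 to 0.576 in D-V, so S-V and D+V lay below Control and D-V overlapped it. Further markers of precursors did not share the pattern of Cspg4: Gpr17, a receptor of committed precursors, was at 0.15, 0.00 and 0.01 in S-V, D+V and D-V against Control (log2), and Neu4, a sialidase, at −0.00, 0.03 and −0.19. Pdgfrb, the PDGF receptor of pericytes, was at −0.49, −0.51 and −0.19 (log2), and 0.30 higher in D-V than in S-V (unadjusted p 0.000447 by edgeR). In D-V against S-V the other pericyte markers were at 0.27 (Anpep), 0.08 (Vtn), 0.04 (Rgs5), 0.04 (Kcnj8) and −0.21 (Abcc9), with unadjusted p from 0.182 to 0.855 by edgeR. Of the 6 pericyte markers, 5 were negative against Control in S-V, in D+V and also in D-V, and Rgs5 was positive in each (0.19, 0.13 and 0.23). Their summed unscaled CPM was 201 to 243 in Control, 199 to 217 in S-V, 151 to 226 in D+V and 201 to 250 in D-V, and 0 of the 6 were at 0 throughout. The part of pericytes in the Cspg4 values was not tested.

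Of the 6 transcription factors, 5 had negative log2 fold changes in each of the 3 rotated groups against Control, none of them called. Olig2, which sets the oligodendrocyte fate, was at 41.3, 30.7 and 24.1 CPM in Control. It was at 30.4, 20.5, 25.1, 28.5 and 28 in S-V, at 27.3, 23.8, 23.7, 29.3 and 22.9 in D+V, and at 38.7, 26.7, 33.9, 29.9 and 30.7 in D-V. The control values spread widely and overlapped every group. The log2 fold change was −0.27 in S-V (SE 0.15), −0.33 in D+V (SE 0.15) and −0.00 in D-V (SE 0.15). Without Control replicate 1 the S-V and D+V values were −0.05 and −0.11.

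Olig1, the close relative of Olig2 needed for precursor maturation, had a mean of 150 ± 24.7 CPM (SD, n = 3) among controls. Its means were 135 ± 12.9 in S-V, 130 ± 11.8 in D+V and 136 ± 6.07 CPM in D-V, with n = 5 and SD for each. Its log2 fold change in D+V was −0.21 (SE 0.09, unadjusted p 0.0401 by edgeR). Sox10, which keeps the lineage and activates myelin genes, was at −0.11, −0.17 and −0.14 in S-V, D+V and D-V. Myrf, the membrane-bound factor that drives myelin genes, was at −0.17, −0.19 and −0.16. Nkx6-2, a homeodomain factor of mature oligodendrocytes, was at −0.29, −0.26 and −0.16. Its exons overlap those of Inpp5a on the other strand, and whether counting kept strands apart is unknown, so its counts are uncertain.

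St18, with a transcript GC content of 41.7%, had positive log2 fold changes in each rotated group, unlike these 5. It was at 18, 22.3 and 21.9 CPM in Control and at 26.4, 28.9, 37.0, 31.4 and 32.9 in D+V. All 5 D+V libraries lay above all 3 controls, a 1.51-fold difference. In S-V it was at 24.7, 30.4, 27.0, 20.6 and 28.1 CPM (log2 0.34, SE 0.12, adjusted p 0.25 by edgeR), and 1 library lay within the controls. In D-V it was at 29.4, 27.2, 23.0, 23.8 and 26.3 (0.32, SE 0.12, adjusted p 0.736), with all 5 above the controls. The difference between D-V and D+V was −0.27 (SE 0.11, adjusted p 0.271 by edgeR), so D+V was not shown to differ from D-V. Leaving out 1 library ended the call in D+V in 5 cases: Control replicate 1 (log2 0.50, adjusted p 0.205), Control replicate 2 (log2 0.65, adjusted p 0.112) and the D+V replicates 3 (log2 0.53, adjusted p 0.0806), 4 (log2 0.59, adjusted p 0.0513) and 5 (log2 0.57, adjusted p 0.0777). In the fit that removes trends on GC content and length, the value was 0.38 (adjusted p 0.402). With the replicate number as a block it was 0.62 and the call was lost (adjusted p 0.072 by edgeR).

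Neither gene of newly formed oligodendrocytes was called. Bcas1, which marks cells beginning to myelinate, had a mean of 197 ± 34.0 CPM (SD, n = 3) among controls. Its means were 224 ± 34.2 in S-V, 199 ± 36.6 in D+V and 189 ± 24.8 CPM in D-V, with n = 5 and SD for each. Its ratio to Mog was 2.72 to 3.06 in Control, 2.71 to 3.43 in S-V, 2.80 to 2.99 in D+V and 2.87 to 3.09 in D-V, a narrow span beside the 1.78-fold span of its own level. Enpp6, a choline phosphodiesterase switched on as precursors differentiate, was the lowest member at 6.85 to 11 CPM, and its log2 fold change was 0.17, 0.15 and 0.11 in S-V, D+V and D-V (SE 0.16 each).

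Among the 5 myelin membrane proteins 0 differed from Control by the test. Mbp (ENSMUSG00000041607) was at 4900, 3620 and 3760 CPM in Control and at 5130, 3520, 4520, 4030 and 3840 in S-V. In D+V it was at 3940, 5210, 3850, 3310 and 3420, and in D-V at 4120, 3200, 3770, 3400 and 4560. Each group spanned most of the range of the others, and the log2 fold change was 0.04, −0.05 and −0.10 (SE 0.15 each). Mobp, a cytoplasmic basic protein of compact myelin, was at 0.29, 0.14 and 0.06 in S-V, D+V and D-V (SE 0.15 each). Mal, a proteolipid of membrane sorting, was at 0.27, −0.05 and 0.04, and the difference of D+V from S-V was −0.33 (SE 0.14, unadjusted p 0.0364 by edgeR), not called. Tspan2, a tetraspanin of myelin, was at 145, 110 and 140 CPM in Control, 133 to 165 in D+V (median 149) and 130 to 161 in D-V (median 136), and its log2 fold changes were 0.23, 0.19 and 0.11.

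Opalin, a glycoprotein found in central but not peripheral myelin, was at 64.3, 43.0 and 48.6 CPM in Control and at 37.4, 35.5, 41.5, 46.5 and 43.6 in D-V. The groups overlapped in 2 D-V libraries, and the log2 fold change was −0.35 (SE 0.18, unadjusted p 0.064, adjusted p 0.832 by edgeR). Without Control replicate 1 it was −0.16.

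Of the 7 adhesion and junction proteins 0 were called. Mog (ENSMUSG00000076439), the immunoglobulin-like protein on the outermost myelin layer, was at 86.7, 56.6 and 60.4 CPM in Control and at 86.4, 54.6, 82.1, 64.8 and 74.9 in S-V. It was at 77.8, 84.0, 65.4, 58.2 and 57.3 in D+V and at 65.4, 52.8, 66.1, 59.5 and 69.8 in D-V. All groups overlapped, with log2 fold changes of 0.10, 0.01 and −0.12 (SE 0.16 each). Mag, which faces the axon, was at −0.08, −0.15 and −0.08. Cnp, a phosphodiesterase of uncompacted myelin, was at −0.01, −0.05 and −0.15, with the limit that its exons overlap those of Dnajc7 on the other strand. Cldn11, the claudin of myelin tight junctions, was at 0.17, −0.02 and 0.05, Gjb1, a gap junction connexin, at −0.06, −0.07 and −0.06, and Cntn2, an adhesion molecule of the juxtaparanode that some neurons also make, at −0.17, −0.12 and −0.16.

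Ermn, a cytoskeletal protein of mature oligodendrocytes, was at 69.3, 51.0 and 54.0 CPM in Control and at 85.4, 64.0, 70.2, 64.8 and 72.6 in S-V. Of the S-V libraries 3 lay above all controls, and the log2 fold change was 0.30 (SE 0.14, unadjusted p 0.0401 by edgeR), not called. It was 0.21 in D+V and 0.07 in D-V. Exons of Ermn overlap those of Galnt5 on the other strand, so its counts too are uncertain.

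Of the 3 enzymes, Aspa, which splits N-acetylaspartate to free acetate for lipid synthesis, was at 19.1, 16.1 and 15.5 CPM in Control and at 14.7, 13.1, 12.8, 14.5 and 14.2 in D-V. All 5 D-V libraries lay below all controls, and the log2 fold change was −0.29 (SE 0.15, unadjusted p 0.0632, adjusted p 0.832 by edgeR). In S-V it was at 0.00 and in D+V at −0.08. Ugt8a, which makes galactosylceramide, was at 0.28, 0.19 and 0.14 in S-V, D+V and D-V (SE 0.18 each), and Fa2h, which hydroxylates the fatty acids of myelin lipids, at −0.05, −0.20 and −0.08 (SE 0.14 each).

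Trf (ENSMUSG00000032554) encodes transferrin, the iron carrier, which choroid plexus also makes. It was at 447, 324 and 347 CPM in Control, at 437, 348, 385, 412 and 350 in S-V, at 413, 485, 369, 306 and 261 in D+V, and at 351, 278, 472, 395 and 392 in D-V. The groups overlapped, with log2 fold changes of 0.05, −0.02 and 0.02 (SE 0.18 each). The 6 libraries highest in choroid plexus markers were S-V 2 and 4, D+V 2 and 5, and D-V 3 and 4. Their levels ran from 1260 to 10900 CPM (summed, unscaled) against 114 to 1150 in the other 12. The number 6 was a setting, and no gap marked its edge: D+V 5 was at 1260 and Control 2 at 1150. Trf was at 261 to 485 CPM in the 6 and 278 to 447 in the 12. Against Ttr, the leading choroid plexus gene, Pearson's r of Trf was 0.195 over the 12 (two-sided permutation p 0.542, rho 0.21) and 0.957 over the 6 (exact permutation p 0.0111, rho 0.771 with an exact permutation p of 0.103), the latter 0.146 after adjustment over the relations with Ttr computed. Other genes of the 31 also ran with Ttr in the 6, such as Cldn11 (r 0.892), Nkx6-2 (0.877), Ugt8a (0.869) and Mag (0.853). Pdgfra (−0.53) and St18 (−0.471) were negative. Trf had the highest r of the 31 genes over the 6, and Cnp was at 0.54. Without the 2 of the 6 farthest from the median of Ttr, r was 0.811 for Trf and 0.969 for Cnp. So few libraries remain there that these values cannot rank the genes. The part of choroid plexus in the Trf values was not tested. Without the 6 libraries highest in choroid plexus markers the median log2 fold change of the 31 genes was 0.14 for S-V, −0.078 for D+V and −0.068 for D-V.

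The other 5 genes of this role were not called either. Lpar1, a receptor for lysophosphatidic acid, was at 0.20, 0.07 and −0.00 in S-V, D+V and D-V, and Gpr37, an orphan receptor, at −0.17, −0.08 and −0.12. Apod, a lipid-binding apolipoprotein, was at 0.15, −0.10 and −0.08, Plekhb1, a protein with a pleckstrin homology domain, at 0.07, 0.03 and −0.14, and Ppp1r14a, an inhibitor of myosin phosphatase, at 0.07, −0.05 and −0.24.

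Many of these genes varied together between libraries of the same group. Taking the 29 genes other than Pdgfra and Cspg4, the median deviation from the gene mean was 0.32 in S-V 1, 0.30 in Control 1, 0.22 in D+V 2 and 0.19 in S-V 3 (log2). It was −0.26 in D-V 2, −0.21 in D+V 5, −0.18 in D+V 4, −0.17 in Control 2 and −0.16 in S-V 2. S-V 1 was among the 3 highest libraries for 21 of the 29 genes and Control 1 for 20, while D-V 2 was among the 3 lowest for 19 and D+V 5 for 17. High and low libraries thus occurred in Control, S-V and D+V alike. Within-group SD ran from 0.14 (Olig1) to 0.32 (Ppp1r14a) on the log2 scale. The range of the group means was 0.20 for Mog and 0.04 for Gjb1, below their within-group SD of 0.25 and 0.31. For St18 and Cspg4 it was 0.59 and 0.48, above their within-group SD of 0.18 and 0.15. It was also above the within-group SD for further genes, such as Ermn (0.30 and 0.20), Mal (0.34 and 0.25) and Olig2 (0.33 and 0.23). A range above the SD thus did not set St18 and Cspg4 apart. Summed levels of 9 oligodendrocyte markers were 5560 to 7710 CPM (unscaled) in Control, 5530 to 8150 in S-V, 5040 to 7860 in D+V and 4990 to 7050 in D-V. Markers of the neighbouring thalamus and habenula summed to 96.4 to 138, 78.3 to 104, 67.2 to 113 and 63.7 to 95.2 in the same order. The part of tissue taken at dissection in these differences was not tested.

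Over the 18 libraries 25 of the other 30 genes had a Pearson's r above 0.5 with Mog in log2 CPM (median 0.766), against 3.28% of the other 14762 genes tested (median −0.01). Of the 30 relations 26 had a Benjamini-Hochberg adjusted permutation p under 0.05. The highest r was that of Cnp, 0.947 (rho 0.928), followed by Bcas1 (0.917, rho 0.903) and Mbp (0.895, rho 0.882). Each had a two-sided permutation p of 1e-05, the smallest that 100000 resamples can give, and an adjusted p of 6e-05. Without the 2 libraries farthest from the median of Mog these were 0.922, 0.899 and 0.847. The 4 genes that did not pass were Pdgfra (r −0.185, rho −0.129, permutation p 0.459), Cspg4 (r −0.244, rho −0.164, permutation p 0.326), St18 (r −0.236, rho −0.249, permutation p 0.343) and Olig2 (r 0.293, rho 0.307, permutation p 0.239). With the group means removed r was −0.208, −0.005, −0.439 and 0.57 for the same 4. For Olig1, Nkx6-2, Cntn2, Gpr37 and Apod r was 0.379, 0.488, 0.333, 0.459 and 0.518 without the 2 farthest libraries and the adjusted p was over 0.05, while with the group means removed r was 0.756, 0.84, 0.566, 0.752 and 0.55 for the same 5.

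**Figure D4:**
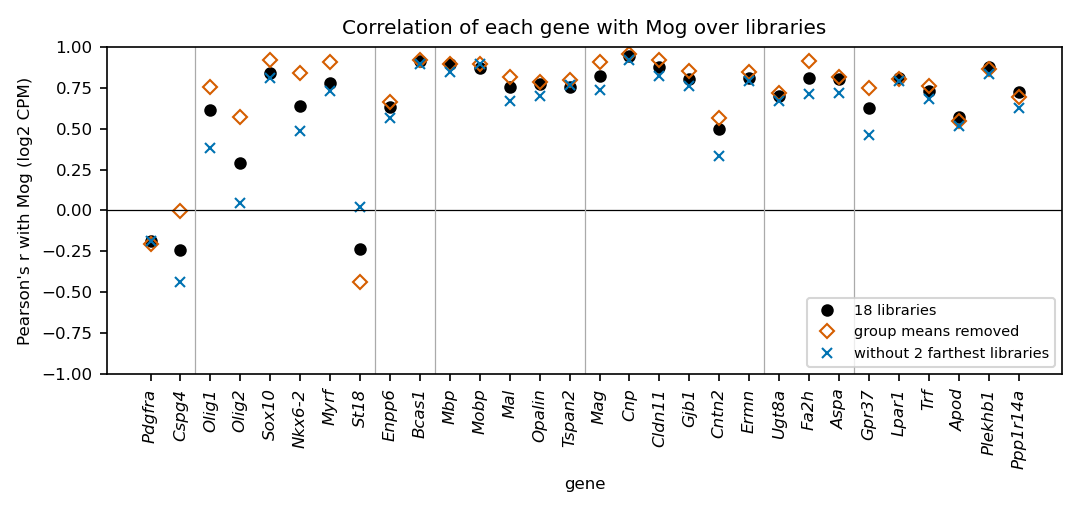
Pearson's r of log2 CPM with Mog for each of the other 30 genes, over 18 libraries (black), with group means removed (orange diamonds) and without the 2 libraries farthest from the median of Mog (blue crosses). Most genes lie above 0.5, and Pdgfra, Cspg4 and St18 are below 0 in the full set (−0.185, −0.244 and −0.236).

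The direction of the small differences followed the base composition of the transcripts. Transcript GC content of the 31 genes ran from 38.0% to 64.3%. Across them Spearman's rho of the log2 fold change with GC content was −0.69 for S-V, −0.71 for D+V and −0.44 for D-V against Control. Over 14743 genes it was −0.43, −0.52 and −0.24. Genes are not independent replicates and the 3 comparisons share controls, so these are descriptions. Of the 6 genes under 45% GC, among them St18 at 41.7%, 6, 5 and 5 were positive in S-V, D+V and D-V. Of the 11 genes at 55% or more, among them Cspg4 at 59.2%, 10, 11 and 10 were negative. The median of the 6 was 0.25 for S-V, 0.19 for D+V and 0.11 for D-V, beside 0.13, 0.18 and 0.07 for genes at large in that range. The median of the 11 was −0.14, −0.19 and −0.14, beside −0.11, −0.13 and −0.04. Whether base composition plays a part in the individual values was not tested beyond the fits with its trend removed.

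**Figure D5:**
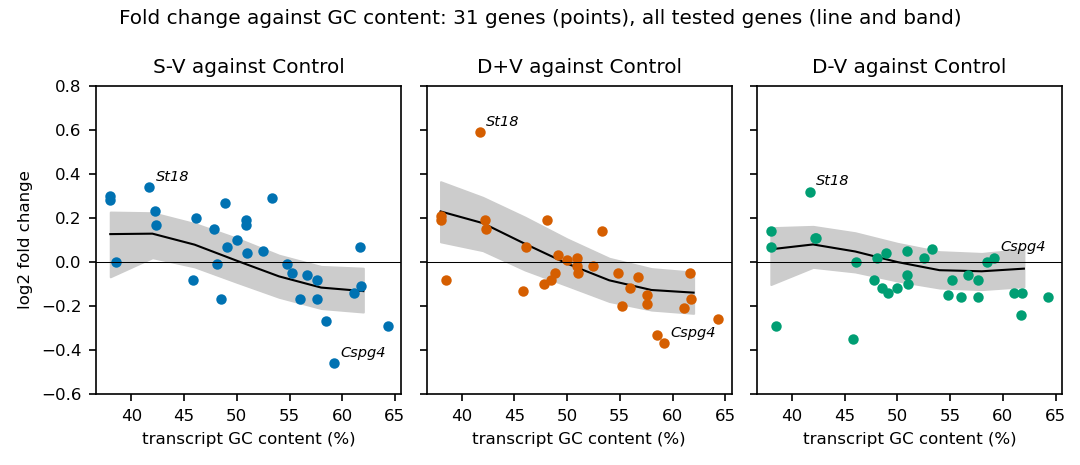
Log2 fold change against Control plotted on transcript GC content for the 31 genes (coloured points), with the median (line) and middle 50% (band) of all tested genes in steps of 4% GC. Points and line slope down in S-V and D+V (rho −0.69 and −0.71 for the points). St18 in D+V and Cspg4 in S-V lie outside the band, as do other points such as Cspg4 in D+V (−0.37) and St18 in D-V (0.32). The band leaves out 50% of genes by definition, so lying outside it does not set a gene apart.

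Other genes of the pathway gave few calls. Of 30 further genes of mature oligodendrocytes 0 were called in any rotated group against Control, and 12, 12 and 9 were positive in S-V, D+V and D-V. Il33, a cytokine held in oligodendrocyte nuclei, was at 0.33, 0.33 and 0.08 (log2, SE 0.10 each), and Zfp488, a transcriptional partner of OLIG2, at −0.26, −0.24 and −0.37 (SE 0.14 each). Of 20 further precursor genes 0 were called. Sox5, a SOX factor of precursors and some neurons, was at 0.28, 0.50 and 0.37 (SE 0.16 each). Tcf7l2, a Wnt effector of newly formed oligodendrocytes and of thalamic neurons, was at −0.44, −0.93 and −1.15. It is itself 1 of the 10 thalamus and habenula markers summed above, so that sum is not separate from it. Of the other markers, Prkcd, Synpo2, Ramp3, Gbx2, Tac2, Chrnb4 and Gpr151 were negative in each rotated group against Control, and Rora and Lef1 were not. The part of thalamic tissue in the Tcf7l2 values was not tested.

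Of 20 cholesterol synthesis genes, whose product myelin needs in bulk, 1 rose in D+V against Control: Hmgcs1, the HMG-CoA synthase, with 185 ± 6.36 CPM (SD, n = 3) among controls and 238 ± 27.6 CPM (SD, n = 5) among D+V libraries, a log2 of 0.36 (SE 0.08, adjusted p 0.0395 by edgeR). Of 12 genes of nodes and paranodes 1 rose and 1 fell in D+V. Cntn1, the axonal contactin of the paranode, rose by a log2 of 0.39 (SE 0.09, adjusted p 0.0411 by edgeR), and Sptbn4, the spectrin of nodes, fell by 0.28 on the log2 scale (SE 0.06, adjusted p 0.0437 by edgeR). These calls stand beside 0.942% of all genes called in that comparison. Hmgcs1, Cntn1 and Sptbn4 were not called with the replicate block (adjusted p 0.0817, 0.0747 and 0.0773 by edgeR), after removal of GC and length trends (0.454, 0.499 and 0.556), with only the groups compared (0.362, 0.362 and 0.372), without the 6 choroid-rich libraries (0.201, 0.174 and 0.223), or without Control replicate 1 (0.181, 0.213 and 0.213) or 2 (0.183, 0.183 and 0.15). They were also lost without D+V replicate 3 (0.0849, 0.0879 and 0.0688), 4 (0.0513, 0.0523 and 0.0513) or 5 (0.0835, 0.0856 and 0.0807). Hmgcs1 (0.0545) and Sptbn4 (0.0586) were lost without D+V replicate 2. Sptbn4 was lost with the other scaling (0.0539) and with no filter on low counts (0.0586). All 3 stayed called with DESeq2 and limma voom, and without Control replicate 3 or D+V replicate 1. Of 16 signals that control myelination 0 were called. Erbb4, a neuregulin receptor also made by interneurons, was at 0.04, 0.63 and 0.18 (SE 0.20 each). Gpr62, a receptor of oligodendrocytes, was at −0.22, −0.22 and −0.24 (SE 0.13 each). The S-V and D-V groups had 0 called genes in these lists.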

How the data were processed

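The deposited table held estimated counts per gene for 18 libraries, 7.35% of them not whole numbers, per the file headers and the values. The submitters' processing notes name StringTie 1.3.1, DESeq2, HISAT2 and Bowtie2 2.2.8 without saying what each did. Per the labels' protocols, polyadenylated RNA was selected before library preparation. Genome build, annotation and strand setting: not given in the sources used here.

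Counts were rounded. Genes kept by filterByExpr of edgeR 4.0.16 (R 4.3.3) numbered 14763, with 99.97% of counts. Genes without a symbol held 0.0562% of counts. After TMM scaling, 4 group means were fitted to all libraries with the robust quasi-likelihood F test, and p-values were adjusted over all tested genes by Benjamini-Hochberg with a threshold of 0.05. Log2 CPM for correlations used a prior count of 2. Common biological variation was 15.4%. Counts had no molecular identifiers.

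The 31 genes and the further lists were chosen with earlier results of these data known. Named genes were Mbp, Mog, Pdgfra, Cspg4, Trf and St18, called genes, and the 2 with the smallest p in each direction in each rotated group against Control. From other lists, called genes or otherwise the 2 with the smallest p were named. Alternatives were other scaling, filters, DESeq2 1.42.0, voom of limma 3.58.1 with sample weights, fits of the compared groups alone, a replicate block, removal of trends on GC content and length (splines with 5 degrees of freedom), omission of 6 libraries high in choroid plexus markers, and omission of each library in turn. Same-numbered libraries of Control and D+V had small positive correlations of their deviations (0.168, 0.107 and 0.155). Those of Control and D-V were negative (−0.119, −0.131 and −0.318), and the median over all such pairs was 0.00754. Pairing by number was thus not shown by the data, and the labels do not say what a number marks. In the other pairs of groups not every correlation was over 0.1. The fit was tested on simulated data. No libraries of the same group agreed within sampling noise, and pairs across groups were not checked.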

Additional observations from a re-analysis of the deposited data

Results flagged for a closer look

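Enpp6 in D-V replicate 2 was at 7.18 CPM, while the other 4 D-V libraries lay between 8.56 and 8.95. The gap to its nearest neighbour was large beside the range of the group. It was 1 of 93 combinations of gene and rotated group examined, and chance flags about 1 in 20. The same library had the lowest median deviation over the 29 genes other than Pdgfra and Cspg4 (−0.26).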

How the results depend on the processing

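The count of called genes among the 31 was 1 in D+V against Control and 0 elsewhere. In D+V it was 2 with DESeq2, 0 with only the groups compared, 0 after removal of GC and length trends, 0 without the 6 choroid-rich libraries, and 0 to 1 with each library left out. DESeq2 and limma voom each called 1 in S-V against Control, 1 for the mean of the rotated groups and 1 in D-V against D+V. DESeq2 called 1 in D-V against S-V, and limma voom called 4 in D+V against S-V (Pdgfra, St18, Mal and Apod). The totals of these tools over all genes for the rotated mean and between rotated groups are not given here. Those counts thus have no share beside them and cannot be read as a result about the 31 genes. With each library left out the count ran from 0 to 1 in D-V against D+V and in D+V against S-V, in both cases 1 without D+V replicate 1, and was 0 in the other comparisons. Medians of the 31 genes against Control did not keep their sign. With each library left out they ran from −0.039 to 0.19 for S-V, −0.145 to 0.121 for D+V and −0.156 to 0.091 for D-V. Tspan2 in D-V against Control changed sign without Control replicate 2 (−0.0036, and 0.19 at the other end, without Control replicate 1). Cspg4 was negative in both S-V and D+V in each fit against Control.

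Over all groups 9 of 24 same-numbered pairs had a correlation over 0.1 (lowest −0.452, median 0.00754, highest 0.34). With the replicate block 0 of the 31 genes were called in D+V against Control (St18 0.62, adjusted p 0.072 by edgeR), and 4 of all genes instead of 139.

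All genes called in D+V against Control numbered 731 with DESeq2 and 1882 with limma voom, and in S-V against Control 216 and 318. At these depths counting error is small for the myelin genes, and the number of libraries limits precision.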
